A study of Mus musculus with 12 samples.

Results

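Gene expression was compared between hearts of CCRR transgenic mice after myocardial infarction (TG+MI) and hearts of CCRR transgenic mice without it (TG). CCRR is a long non-coding RNA, and the series concerns its effect on the inflammation that follows infarction and on Toll-like receptor signalling. The arrays were chosen by their labels, 3 for TG+MI and 3 for TG, which is 6 of the 12 arrays of the series. The other 6 arrays are wild-type hearts of strain C57/BL6 without (WT, n = 3) and with infarction (WT+MI, n = 3), used here only beside the transgenic values. Both transgenic groups carry the transgene, so their difference is the response to infarction on that background and says nothing by itself of the transgene. The strain of the transgenic mice, the promoter that drives the transgene, the number of founder lines, the age of the mice, the way infarction was induced, the time until sampling, the part of the heart taken and any sham operation of the TG mice are not stated in what was used here. It is also not stated that the 3 arrays of a group came from separate animals, so each p-value measures only how arrays of one group vary, over all 12 arrays, and that variation may be technical.

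In an infarct, heart muscle cells deprived of blood die and release signals that Toll-like receptors and other sensors on neighbouring cells detect. These signals act through the NF-kappaB transcription factors on genes for cytokines and chemokines, which recruit neutrophils first and then monocytes that become macrophages. Fibroblasts later lay down collagen and other matrix proteins to form a scar, and surviving heart muscle raises stress genes such as those of the natriuretic peptides.

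Each value below is a log2 level: the log2 processed signal of the gene's probe minus the array's 75th percentile, so that 0 is the 75th percentile of that array. Levels of different genes come from different probes and are not compared with each other. The 75th percentile lay between 198.3 and 373.5 signal units per array, 47.0% to 55.2% of probes were well above background, and 0 spots were saturated. The number of arrays limits the precision. No spot carries the name CCRR, so the transgene's own transcript was not checked. The heart muscle markers Myh6, Tnnt2 and Nkx2-5 were well above background on all 6 transgenic arrays. Of 19 markers of heart muscle cells 0 were called in either direction. Of all genes only 8.82% were called, so with 19 genes this count says little.

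Slide is tied to the groups. TG 1 and TG 2 were on slide 1 with all wild-type arrays, and TG 3 was on slide 2 with all 3 TG+MI arrays, each slide with a scan of its own. The difference within slide 2, TG+MI against TG 3 alone, is therefore printed beside the main difference. A fit with slide as a block gives that same difference with a p-value. In a principal component analysis of the 6 arrays the first component held 53.2% of the variance, with TG arrays at -53.8, -35.7 and -34.1 and TG+MI arrays at 30.5, 47.1 and 46.0. TG 3, alone of its group on slide 2, thus lay beside TG 2. The second component (22.9%) set TG+MI 3 (-50.5) apart from TG+MI 1 (20.0) and TG+MI 2 (36.4). Some, though not all, of the results in which TG+MI 3 stood apart are also given without it.

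Of 19761 genes tested, 1743 (8.82%) were called at a limma adjusted p below 0.05. Of these, 1001 were higher in TG+MI (5.07%) and 742 were lower (3.75%), and 367 and 378 of them had a log2 difference of 1 or more in size. The median difference over all genes tested was 0.03. With slide as a block 122 genes were called (0.617%), 79 higher (0.4%) and 43 lower (0.218%), and 109 of the 122 were among the 1743. On slide 2 alone limma called 0 genes, with 1666 at an unadjusted p below 0.05. The count also moved with single arrays: it was 746 without TG 1, 987 without TG 2, 1122 without TG 3 and 679 without TG+MI 2.

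Genes of neutrophils and of the acute inflammatory response showed some of the largest rises in TG+MI. Lcn2, which encodes the iron-carrier-binding protein lipocalin 2 of neutrophils and injured tissue, lay at -0.79, -0.71 and -0.40 in the TG arrays and at 5.08, 5.16 and 4.5 in the TG+MI arrays. The groups were far apart and the values within each were close together. The difference was 5.55 ± 0.27 (adjusted p = 6.71e-06), where ± is limma's standard error, and 5.31 on slide 2 (adjusted p = 0.00126 with the block). S100a9, which encodes a subunit of calprotectin, a calcium-binding protein abundant in neutrophils, lay at -0.19, -0.46 and 0.35 in the TG arrays and at 3.59, 4.84 and 3.85 in the TG+MI arrays. All 3 TG+MI arrays stood above all TG arrays, TG+MI 2 highest. It rose by 4.19 ± 0.44 (adjusted p = 0.00069), and by 3.74 on slide 2 (adjusted p = 0.038 with the block). S100a8, the partner subunit, rose by 4.02 ± 0.48 (adjusted p = 0.00144) and differed by 3.78 on slide 2 (adjusted p = 0.0594 with the block).

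Of 24 neutrophil markers tested, 12 rose and 0 fell, against 5.07% and 3.75% of all genes. Of the 24, 12 were above background on all 6 transgenic arrays, and 5 of those rose. The other 12 include genes tested only because an infarcted group was above background. The median difference of the 24 was 2.01, and 2.47 on slide 2. With genes that were below background in a group set at their lower bound it was 1.44. With the slide block 4 were called, Lcn2, S100a9, Il1r2 and Cxcr2. Cxcr2, the receptor through which neutrophils follow chemokines, was above background on no TG array and on all TG+MI arrays, at least 2.72-fold higher (adjusted p = 0.00144). Clec4d and Clec4e, lectin receptors of myeloid cells, rose too, Clec4d with 3.51 ± 0.65 (adjusted p = 0.0109) and 3.15 on slide 2 (adjusted p = 0.206 with the block) and Clec4e at least 4.42-fold higher (adjusted p = 0.0019). Csf3r, the receptor for the granulocyte growth factor, differed by 0.03 ± 0.13 (adjusted p = 0.919), at levels of 6.31, 6.42 and 6.40 in TG. The number of neutrophil markers called stayed between 10, without TG 1 or TG+MI 2, and 14, without TG+MI 3. The summed level of the 24 markers, as log2, ranged over 6.38 to 6.49 in TG and 7.12 to 7.29 in TG+MI. In TG that sum was nearly the level of Csf3r alone, which did not change, so it understates the rise of the other markers. In whole tissue, more cells of a type and more RNA per cell cannot be told apart.

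**Figure D1:**
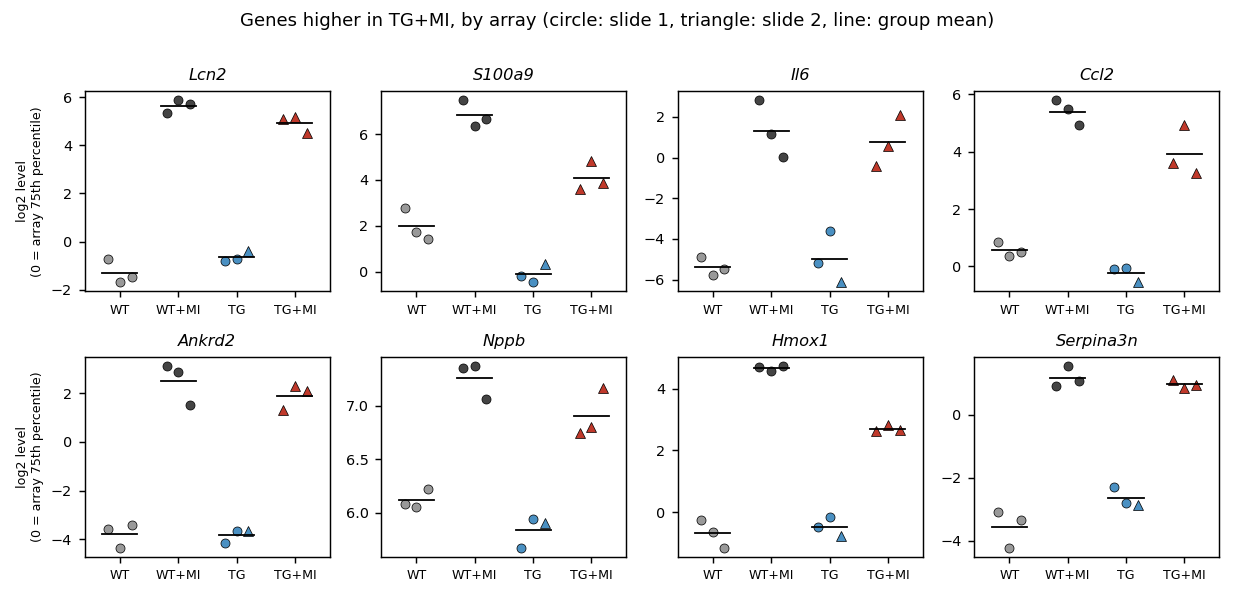
Log2 level (y axis, 0 = the array's 75th percentile) of 8 genes by array in WT, WT+MI, TG and TG+MI (x axis), each point 1 array, circles slide 1, triangles slide 2, lines group means. For all 8 genes every TG+MI array stands above every TG array, and TG 3 (triangle among the TG arrays) lies with TG 1 and TG 2. Axes differ between genes.

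Nearly all called cytokine and chemokine genes rose. Of 36 tested, 16 rose and 1 fell, against 5.07% and 3.75% of all genes. The median was 1.60, 1.53 with dim genes at their bound and 1.89 on slide 2. With the slide block 8 were called, all higher. Without TG+MI 2 the rises numbered 13. Of the 24 above background on all 6 transgenic arrays, 7 rose and 1 fell. Ccl2, which encodes the main attractant of monocytes, lay at -0.07, -0.05 and -0.56 in the TG arrays and at 3.6, 4.92 and 3.27 in the TG+MI arrays. TG+MI 2 was again the highest. It rose by 4.16 ± 0.38 (adjusted p = 0.000357), and by 4.49 on slide 2 (adjusted p = 0.0145 with the block). Ccl7, another monocyte attractant, rose by 3.86 ± 0.36 (adjusted p = 0.000384) and by 3.91 on slide 2 (adjusted p = 0.0229 with the block).

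Il6, the cytokine that drives the acute phase response, lay at -5.16, -3.61 and -6.13 in the TG arrays and at -0.40, 0.58 and 2.07 in the TG+MI arrays, and was well above background on 1 TG array, TG 2, and on all 3 TG+MI arrays. Its fitted differences thus rest on undetected signal in TG 1 and TG 3, and the value on slide 2 on TG 3 alone, so their sizes are not measured folds. Among the TG+MI arrays TG+MI 3 had the highest value. The fitted difference was 5.71 ± 0.82 (adjusted p = 0.00341), and 6.88 on slide 2 (adjusted p = 0.0334 with the block). Cxcl5, a neutrophil attractant, rose by 5.86 ± 0.52 (adjusted p = 0.000323) and by 6.38 on slide 2 (adjusted p = 0.0127 with the block), with 2 of 3 TG arrays above background and TG 3 below it. Il1b, the cytokine matured by inflammasomes, was above background on no TG array and on all TG+MI arrays, at least 13.2-fold higher (adjusted p = 0.00217, and 0.0309 with the block). Il1r2, the decoy receptor that binds interleukin 1, was at least 11-fold higher (adjusted p = 0.000785, and 0.0332 with the block). Receptor and ligand thus both went from below to above background.

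Tnf, the cytokine tumour necrosis factor, lay at -1.57, -1.20 and -1.01 in the TG arrays and at -1.0, -1.06 and -0.71 in the TG+MI arrays and differed by 0.33 ± 0.18 (adjusted p = 0.284), which was not called. The only cytokine gene that fell was Cxcl9, an interferon-induced attractant of T cells, with -1.02 ± 0.28 (adjusted p = 0.0477) and -1.10 on slide 2 (adjusted p = 0.312 with the block). That call was lost without TG 1, TG 2, TG 3, TG+MI 2 or TG+MI 3 (-1.18 to -0.71, adjusted p = 0.0608 to 0.14).

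The sequences of 4 called cytokine genes are shown because each holds, in the 100 bases before its start, GGGANTTTC, the first 9 letters of a common NF-kappaB motif, where N is any base. They are RefSeq promoters on GRCm38.p6, written 5′ to 3′ on the gene's strand and ending at the base before the start, with the motif in capitals.
Il6, chr5:30013014-30013113, plus strand: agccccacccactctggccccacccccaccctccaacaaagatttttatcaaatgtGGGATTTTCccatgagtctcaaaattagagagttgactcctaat
Cxcl1, chr5:90891145-90891244, plus strand: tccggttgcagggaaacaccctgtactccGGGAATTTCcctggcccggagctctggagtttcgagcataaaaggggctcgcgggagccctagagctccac
Cxcl2, chr5:90903799-90903898, plus strand: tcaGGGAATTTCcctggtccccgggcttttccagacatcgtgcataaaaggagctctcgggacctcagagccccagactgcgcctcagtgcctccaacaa
Cxcl3, chr5:90786001-90786100, plus strand: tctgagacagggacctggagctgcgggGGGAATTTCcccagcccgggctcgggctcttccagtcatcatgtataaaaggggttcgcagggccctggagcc
RefSeq promoter entries, 250 bases before to 50 after the start, were found for 12 of the 17 called cytokine genes, and 5 of the 12 hold these letters on either strand. Of 32851 promoter entries of the same length, 365 (1.11%) do. A gene was counted if any of its entries held the letters, so genes and single entries are not counted alike. The fifth gene is Cxcl9, which fell and holds the reverse complement of the letters at -154 to -146. The match describes these letters and shows neither a bound site nor a cause. The motif spans -44 to -36 in Il6, -71 to -63 in Cxcl1, -97 to -89 in Cxcl2 and -73 to -65 in Cxcl3, counted back from the start.

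Cxcl1, Cxcl2 and Cxcl3 encode chemokines that draw neutrophils. Cxcl1 lay at -0.81, -0.94 and -1.80 in the TG arrays and at 0.53, 1.5 and 2.62 in the TG+MI arrays. It rose by 2.74 ± 0.53 (adjusted p = 0.0128), and by 3.36 on slide 2 (adjusted p = 0.092 with the block). Cxcl3 was above background on 0 TG and 3 TG+MI arrays, at least 3.53-fold higher (adjusted p = 0.00484, and 0.112 with the block). Cxcl2 was above background on 0 TG and 2 TG+MI arrays, and its bound is under 1-fold, so no fold is given. Its call (adjusted p = 0.0284) was lost without TG 1, TG 2, TG 3, TG+MI 2 or TG+MI 3 (1.81 to 2.27, adjusted p = 0.0558 to 0.101).

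Genes of Toll-like receptor signalling mostly did not pass the test. Of 46 tested, 3 rose (5.07% of all genes did) and 0 fell, and the median was 0.08 against 0.03 over all genes. With the block 0 were called. Myd88, the adaptor that most Toll-like receptors use, lay at 1.05, 0.98 and 1.13 in the TG arrays and at 1.82, 2.33 and 1.86 in the TG+MI arrays. The groups did not overlap. It rose by 0.95 ± 0.14 (adjusted p = 0.00423), and by 0.88 on slide 2 (adjusted p = 0.119 with the block). Relb and Nfkb2, members of the NF-kappaB family, rose by 0.84 ± 0.19 (adjusted p = 0.0258) and 0.60 ± 0.16 (adjusted p = 0.043), and differed by 0.86 and 0.32 on slide 2. Relb lost its call without TG 1, TG 2, TG 3, TG+MI 1 or TG+MI 2 (0.63 to 0.88, adjusted p = 0.0575 to 0.0855). Nfkb2 lost it without TG 1, TG 2, TG+MI 1 or TG+MI 2 (0.44 to 0.62, adjusted p = 0.0771 to 0.141).

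The receptor genes Tlr4 and Tlr2 were not called. Tlr4, the receptor for bacterial lipopolysaccharide and for several proteins of dying cells, lay at 0.50, 0.85 and 0.77 in the TG arrays and at 0.94, 0.97 and 0.91 in the TG+MI arrays, a difference of 0.23 ± 0.12 (adjusted p = 0.273). Tlr2, the receptor for lipoproteins, lay at -0.83, -1.15 and -1.17 in the TG arrays and at -1.10, -0.32 and -1.26 in the TG+MI arrays, with 0.16 ± 0.31 (adjusted p = 0.79). The values of TG+MI 1 and 3 lay within the range of TG or just beside it. The co-receptor gene Cd14 differed by 0.18 ± 0.35 (adjusted p = 0.784) and Nfkb1 by -0.01 ± 0.11 (adjusted p = 0.965). Tollip and Sigirr, inhibitors of the pathway, differed by 0.06 and -0.13, neither called.

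Of 15 inflammasome and pyroptosis genes 3 rose and 0 fell, against 5.07% and 3.75% of all genes. Their median was 0.07, and 0 were called with the block. Mefv, which encodes the sensor pyrin, was at least 5.98-fold higher (adjusted p = 0.00485). Casp4, the caspase that senses intracellular lipopolysaccharide, rose by 0.80 ± 0.21 (adjusted p = 0.0396) and Nek7, a partner of NLRP3, by 0.45 ± 0.10 (adjusted p = 0.019). Casp4 lost its call without TG 1, TG 2, TG 3, TG+MI 2 or TG+MI 3 (0.68 to 0.83, adjusted p = 0.0835 to 0.103), and Nek7 without TG 1 (0.39, adjusted p = 0.0698). Casp1, which matures interleukin 1 beta, and Gsdmd, which forms the pore of pyroptosis, differed by -0.02 and -0.04 and were not called. Of 30 interferon-stimulated genes 0 were called in either direction by limma, 6 lay higher without overlap and 6 lower, where 16.7% and 13.6% of all genes did, and 0 were called with the block. Isg15 differed by 0.53 ± 0.35 (adjusted p = 0.383).

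Of 39 monocyte and macrophage markers tested, 2 rose and 4 fell, against 5.07% and 3.75% of all genes, with a median of 0.02 and -0.06 on slide 2. Chil3, a chitinase-like protein of activated myeloid cells, lay at -4.71, -4.48 and -4.02 in the TG arrays and at 1.82, 3.51 and -0.34 in the TG+MI arrays, below background on all TG arrays and above on all TG+MI arrays. It was at least 53.8-fold higher (adjusted p = 0.00341, and 0.104 with the block), the largest bound among the genes named here. Arg1, which encodes arginase 1 of wound macrophages, was above background on 0 TG and 2 TG+MI arrays, the exception being TG+MI 3. It was called higher (adjusted p = 0.0337), with a computed bound of 5.44-fold. That bound takes in the undetected signal of TG+MI 3, so it is no sure lower limit. Arg1 lost its call without TG 1, TG 2, TG 3, TG+MI 1 or TG+MI 2 (3.23 to 4.81, adjusted p = 0.072 to 0.103).

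Cd68, a lysosomal marker of macrophages, lay at 1.32, 1.18 and 1.37 in the TG arrays and at 1.79, 2.43 and 0.82 in the TG+MI arrays. TG+MI 1 and 2 stood above every TG array and TG+MI 3 below. The difference was 0.39 ± 0.31 (adjusted p = 0.47). Adgre1, which encodes the macrophage protein F4/80, showed the same outlying array, at 0.98, 0.83 and 0.91 in the TG arrays and at 0.65, 0.80 and -0.96 in the TG+MI arrays. The difference was -0.75 ± 0.37 (adjusted p = 0.24), and Csf1r, the receptor for the macrophage growth factor, differed by -0.79 ± 0.28 (adjusted p = 0.101). Without TG+MI 3, 9 of the markers were called higher in place of 2. The median of the 39 markers, as a difference from the TG mean, was 0.11, 0.48 and -0.61 in the 3 TG+MI arrays in turn. Cd163 and Folr2, receptors of resident macrophages, fell, with differences of -1.32 ± 0.35 (adjusted p = 0.042) and -0.89 ± 0.21 (adjusted p = 0.0277). The apolipoprotein gene Apoe fell by 1.06 ± 0.17 (adjusted p = 0.00515). Cd163 lost its call without TG 1, TG 2, TG 3, TG+MI 1 or TG+MI 2 (-1.43 to -1.15, adjusted p = 0.0761 to 0.131), and Folr2 without TG 1, TG 3, TG+MI 2 or TG+MI 3 (-0.87 to -0.80, adjusted p = 0.0573 to 0.098). Ctsk, which encodes cathepsin K, fell by 1.03 ± 0.17 (adjusted p = 0.0067). On slide 2 these 4 differed by -1.31, -1.01, -0.98 and -0.87, none called with the block.

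Lymphocyte and antigen presentation genes were called about as often as all genes (5.07% higher and 3.75% lower). Of 15 lymphocyte markers tested 1 rose, Il7r, by 1.57 ± 0.41 (adjusted p = 0.0413) and 1.27 on slide 2 (adjusted p = 0.42 with the block), a call that was lost without TG 1, TG 2, TG 3, TG+MI 2 or TG+MI 3 (1.29 to 1.71, adjusted p = 0.0649 to 0.136). The T cell marker Cd3e differed by -0.04 ± 0.12 (adjusted p = 0.868). Of 24 genes of antigen presentation 0 rose and 1 fell, Cd83, a marker of mature dendritic cells, by -1.0 ± 0.17 (adjusted p = 0.00855) and -1.08 on slide 2 (adjusted p = 0.116 with the block).

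Stress genes of the heart muscle rose in part. Of 20 tested 9 rose and 1 fell, against 5.07% and 3.75% of all genes. The median was 0.98 and 0.97 on slide 2, and the count of rises was 7 or 8 without any single array. Ankrd2, which encodes a stretch-responsive ankyrin repeat protein of muscle, lay at -4.13, -3.65 and -3.65 in the TG arrays and at 1.30, 2.28 and 2.07 in the TG+MI arrays. It was above background on 1 TG array, TG 3, and on all TG+MI arrays. It rose by 5.69 ± 0.42 (adjusted p = 0.000141), and by 5.53 on slide 2 (adjusted p = 0.0127 with the block), and was the only gene of the list called with the block.

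Nppb, the gene of B-type natriuretic peptide, lay at 5.67, 5.94 and 5.90 in the TG arrays and at 6.75, 6.80 and 7.17 in the TG+MI arrays. Every TG+MI array stood above every TG array. It rose by 1.07 ± 0.14 (adjusted p = 0.0024) and differed by 1.0 on slide 2 (adjusted p = 0.078 with the block). Ankrd1, a stretch-responsive relative of Ankrd2, rose by 0.90 ± 0.13 (adjusted p = 0.00337) and Gdf15, a stress cytokine, by 2.89 ± 0.46 (adjusted p = 0.00543). They differed by 0.79 and 3.31 on slide 2. Nppa, the gene of the atrial natriuretic peptide, went the other way, at 8.35, 7.40 and 8.20 in the TG arrays and at 6.84, 7.34 and 5.66 in the TG+MI arrays. The difference of -1.37 ± 0.38 (adjusted p = 0.0513) did not pass, and TG values lay above the WT values of 5.19, 5.15 and 5.19. Nppa is also listed among the atrial markers below, and how much atrial tissue each sample held is not stated. Myh7, the slow myosin heavy chain, varied too widely within TG for a call, at 4.45, 6.70 and 4.02 in the TG arrays and at 6.77, 6.06 and 5.69 in the TG+MI arrays. The gene that fell was Postn, which encodes the matrix protein periostin and is listed among matrix genes too, by -1.33 ± 0.27 (adjusted p = 0.0151).

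Nmrk2, which encodes a muscle kinase that makes an NAD precursor, was not on the list and rose by 4.82 ± 0.52 (adjusted p = 0.000769) and by 4.59 on slide 2 (adjusted p = 0.0389 with the block). It lay at 0.37, 1.01 and 1.03 in the TG arrays and at 5.34, 6.5 and 5.0 in the TG+MI arrays. All TG+MI arrays stood far above all TG arrays.

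Immediate early genes, which respond within minutes to stimulation, rose in part. Of 28 tested, 9 rose and 1 fell, against 5.07% and 3.75% of all genes. The median was 0.44 and 0.77 on slide 2, and 6 rises were left without TG 1 or without TG+MI 2. Ier3, a survival gene, lay at 0.37, 0.63 and 0.31 in the TG arrays and at 2.24, 2.86 and 3.18 in the TG+MI arrays. It rose by 2.32 ± 0.24 (adjusted p = 0.000706) and by 2.45 on slide 2 (adjusted p = 0.0259 with the block), the only call of the list with the block. Fosl1, a partner in the AP-1 factor, was at least 3.9-fold higher (adjusted p = 0.00499). Fos did not pass, at 1.35, 2.04 and 0.65 in the TG arrays and at 0.16, 1.17 and 3.65 in the TG+MI arrays, with a difference of 0.32 ± 0.75 (adjusted p = 0.827). TG+MI 3 was the highest of the 6 and TG+MI 1 the lowest. Egr1 had the same highest array, at 2.01, 1.81 and 3.92 in TG+MI against 2.51, 2.31 and 1.47 in TG. The phosphatase gene Dusp1 fell by 1.04 ± 0.23 (adjusted p = 0.0216) and differed by -0.86 on slide 2, a call that was lost without TG 2, TG+MI 1 or TG+MI 2 (-0.95 to -0.86, adjusted p = 0.0623 to 0.0826).

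In the heat shock genes TG+MI 3 stood apart too. Of 19 tested 6 rose and 0 fell, against 5.07% and 3.75% of all genes. The median was 0.24, and with the block 0 were called. Hspa1a, an inducible HSP70 gene, lay at 0.39, 0.19 and -0.31 in the TG arrays and at 2.70, 2.79 and 5.13 in the TG+MI arrays. TG+MI 3 stood more than 2 units above TG+MI 1 and 2. The difference was 3.45 ± 0.92 (adjusted p = 0.0435) and 3.85 on slide 2 (adjusted p = 0.277 with the block), and the call was lost without TG 1, TG 2, TG 3, TG+MI 1, TG+MI 2 or TG+MI 3 (2.66 to 3.87, adjusted p = 0.0554 to 0.107). Hspa1b, its near-identical neighbour whose probe may take up the same transcripts, rose by 3.76 ± 0.82 (adjusted p = 0.0207) and lost the call without TG 1, TG 2, TG 3 or TG+MI 2 (3.54 to 4.05, adjusted p = 0.0508 to 0.0618). Without TG 1, TG 3 or TG+MI 2 the list had 0 calls.

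Genes of haem breakdown, glucose uptake and cell death were among those that rose. Of 33 antioxidant, metallothionein and haem genes 8 rose and 2 fell, against 5.07% and 3.75% of all genes. Hmox1, the inducible haem oxygenase, lay at -0.49, -0.16 and -0.78 in the TG arrays and at 2.64, 2.82 and 2.64 in the TG+MI arrays. Values within a group were close and the groups were far apart. It rose by 3.18 ± 0.21 (adjusted p = 8.56e-05), and by 3.48 on slide 2 (adjusted p = 0.00275 with the block). Mt2, which encodes the metal-binding protein metallothionein 2, rose by 1.61 ± 0.24 (adjusted p = 0.00445) and differed by 1.57 on slide 2 (adjusted p = 0.108 with the block). Tfrc, the transferrin receptor through which cells take up iron, lay at 1.05, 1.29 and 1.45 in the TG arrays and at -0.92, -0.88 and -1.09 in the TG+MI arrays. The difference was -2.23 ± 0.19 (adjusted p = 0.000292), and -2.41 on slide 2 (adjusted p = 0.0127 with the block). Sod3, an extracellular superoxide dismutase, fell by 0.69 ± 0.19 (adjusted p = 0.0473) and lost the call without TG 1, TG 3, TG+MI 2 or TG+MI 3 (-0.77 to -0.45, adjusted p = 0.0638 to 0.134).

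Of 39 genes of glucose use and hypoxia 9 rose and 0 fell, against 5.07% and 3.75% of all genes. Their median was 0.19, and 3 rises were left without TG 1. Slc16a3, the lactate exporter MCT4, lay at -0.41, -1.54 and -1.29 in the TG arrays and at 1.59, 2.30 and 1.93 in the TG+MI arrays and rose by 3.02 ± 0.39 (adjusted p = 0.00218) and by 3.23 on slide 2 (adjusted p = 0.0468 with the block). Slc2a1, the insulin-independent glucose transporter GLUT1, rose by 1.82 ± 0.25 (adjusted p = 0.00271) and differed by 1.74 on slide 2 (adjusted p = 0.0801 with the block). The insulin-dependent transporter gene Slc2a4 differed by -0.17 ± 0.28 (adjusted p = 0.74) and was not called. Car9, a carbonic anhydrase induced by hypoxia, was at least 4.52-fold higher (adjusted p = 0.0118), a call lost without TG+MI 2 (2.93, adjusted p = 0.051).

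Of 39 genes of cell death 9 rose and 0 fell, against 5.07% and 3.75% of all genes, and 2 rises were left without TG+MI 2. Tnfrsf12a, the receptor of the cytokine TWEAK, lay at 2.95, 3.43 and 3.09 in the TG arrays and at 4.82, 5.12 and 5.36 in the TG+MI arrays. It rose by 1.95 ± 0.20 (adjusted p = 0.00069), and by 2.01 on slide 2 (adjusted p = 0.0281 with the block). Ripk3, a kinase of necroptosis, rose by 1.11 ± 0.22 (adjusted p = 0.0141), and the cell cycle inhibitor Cdkn1a by 1.95 ± 0.50 (adjusted p = 0.04). Ripk3 lost its call without TG 1 or TG+MI 2 (0.93 to 1.06, adjusted p = 0.0537 to 0.0541), and Cdkn1a without TG 1, TG 2, TG 3 or TG+MI 2 (1.79 to 2.23, adjusted p = 0.0618 to 0.127). Of 32 genes of the unfolded protein and integrated stress responses 5 rose and 0 fell, Atf4, Xbp1, Atf6, Asns and Slc7a1. Without TG+MI 3 the counts were 10 and 2, and without TG 1, TG 3, TG+MI 1 or TG+MI 2 the rises were 3. Xbp1, a transcription factor of the unfolded protein response, rose by 0.98 ± 0.17 (adjusted p = 0.00929) and Atf4, the effector of the integrated stress response, by 1.16 ± 0.25 (adjusted p = 0.019). They differed by 0.98 and 1.29 on slide 2, and Atf4 lost its call without TG 1 or TG 3 (1.09 to 1.14, adjusted p = 0.0578 to 0.0645). Atf6, Asns and Slc7a1 rose by 0.59, 1.38 and 0.67 in that order. Asns lost its call without TG 2, TG 3, TG+MI 1 or TG+MI 2 (1.13 to 1.41, adjusted p = 0.0514 to 0.0888), and Slc7a1 without TG 1, TG 3, TG+MI 1 or TG+MI 2 (0.57 to 0.68, adjusted p = 0.0804 to 0.0968).

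Matrix genes formed the largest group of falls. Of 53 matrix genes other than collagens 20 fell and 5 rose, against 3.75% and 5.07% of all genes. Of the 46 above background on all 6 transgenic arrays, 18 fell and 3 rose. Their median was -0.38 and -0.40 on slide 2. The count of falls was 11 without TG+MI 2 and 23 without TG+MI 3. With the block 5 fell, Comp, Fmod, Cilp, Cilp2 and Bgn, and 1 rose, Adamts4.

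Comp, which encodes a matrix protein of cartilage and tendon, lay at 2.43, 1.61 and 1.26 in the TG arrays and at -2.21, -3.32 and -3.29 in the TG+MI arrays. Every TG array stood far above every TG+MI array. The difference was -4.71 ± 0.44 (adjusted p = 0.000384), and -4.20 on slide 2 (adjusted p = 0.0254 with the block). Fmod, the gene of fibromodulin, a proteoglycan that binds collagen, lay at -0.61, -1.26 and -1.58 in the TG arrays and at -5.16, -5.84 and -5.25 in the TG+MI arrays, above background on all TG and no TG+MI arrays. It was at least 11.7-fold lower (adjusted p = 0.000154, and 0.0127 with the block). Cilp2, a cartilage intermediate layer gene, was at least 20.9-fold lower (adjusted p = 0.000785, and 0.0371 with the block), and its relative Cilp fell by 2.66 ± 0.37 (adjusted p = 0.0029), with -2.95 on slide 2 (adjusted p = 0.0498 with the block). Bgn, the proteoglycan biglycan, fell by 1.52 ± 0.17 (adjusted p = 0.0011), with -1.21 on slide 2 (adjusted p = 0.0469 with the block).

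The same direction was seen in genes outside the list. Ucma, a matrix protein gene of cartilage, lay at -1.36, -2.01 and -2.41 in the TG arrays and at -6.93, -7.01 and -6.74 in the TG+MI arrays and was at least 6.82-fold lower (adjusted p = 6.71e-06, and 0.000282 with the block). Chad, the cartilage protein chondroadherin, fell by 2.64 ± 0.30 (adjusted p = 0.000967), with -2.24 on slide 2 (adjusted p = 0.0483 with the block). Ecrg4, a secreted peptide precursor gene, was at least 31.6-fold lower (adjusted p = 0.00308, and 0.112 with the block). Ptn, which encodes the growth factor pleiotrophin, fell by 3.08 ± 0.37 (adjusted p = 0.00135) and differed by -2.38 on slide 2 (adjusted p = 0.0541 with the block). Itga8, an integrin subunit gene, fell by 3.20 ± 0.66 (adjusted p = 0.0166) but by less against TG 3, with -1.57 on slide 2 (adjusted p = 0.348 with the block), and lost its call without TG+MI 2 (-3.06, adjusted p = 0.0627).

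Several of these genes had TG levels well above wild type. Of all genes called lower in TG+MI, 81.8% had a TG mean above the WT mean. Among genes called higher 30.4% did, and among all genes 38.3%. Fmod lay at -4.30, -4.92 and -4.69 in WT and -5.07, -6.21 and -5.59 in WT+MI, well above background on 1 of these 6 arrays, so that TG stood apart from the other 3 groups. Comp lay at -1.40, -1.51 and -0.60 in WT and -4.01, -3.29 and -2.66 in WT+MI. The TG arrays enter both TG+MI against TG and TG against WT, so these levels are given side by side and not as 2 independent results.

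**Figure D2:**
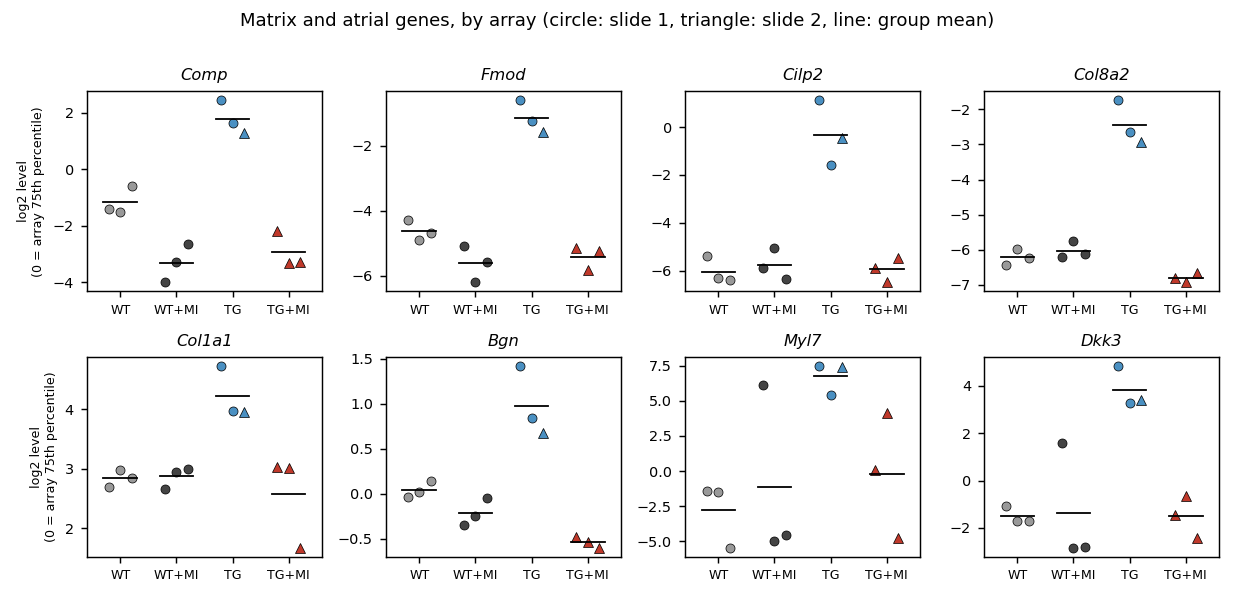
Log2 level (y axis, 0 = the array's 75th percentile) of 6 matrix and 2 atrial genes by array in the 4 groups (x axis), each point 1 array, circles slide 1, triangles slide 2, lines group means. For Comp, Fmod, Cilp2 and Col8a2 the 3 TG arrays stand above all other arrays, and for Col1a1 TG+MI 3 is the lowest array. Axes differ between genes.

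Of 20 collagen genes 8 fell and 0 rose, against 3.75% and 5.07% of all genes, with a median of -1.06 and -0.85 on slide 2. As a difference from the TG mean, the median of the 20 was -1.02, -0.84 and -0.94 in the WT arrays. In the TG+MI arrays it was -0.83, -0.83 and -1.57. TG thus stood above both WT and TG+MI, and the TG arrays enter both differences. Col8a2, a short-chain collagen gene, was at least 4.77-fold lower (adjusted p = 5.44e-05, and 0.00275 with the block), the only collagen called with the block. Col1a1 and Col1a2 encode the chains of type I collagen, the main fibre of scars. Col1a1 lay at 4.73, 3.98 and 3.95 in the TG arrays and at 3.03, 3.01 and 1.68 in the TG+MI arrays. TG+MI 3 was lowest and TG 1 highest. It fell by 1.65 ± 0.34 (adjusted p = 0.016) and differed by -1.38 on slide 2 (adjusted p = 0.277 with the block), and its call was lost without TG 1 (-1.39, adjusted p = 0.062). Col1a2 fell by 1.48 ± 0.25 (adjusted p = 0.00745) and differed by -1.31 on slide 2 (adjusted p = 0.172 with the block). Col3a1, the type III collagen gene, lay at 4.16, 4.16 and 2.22 in TG+MI and did not pass, with -1.52 ± 0.43 (adjusted p = 0.0535), and another of its probes differed in the opposite direction. Col4a6, a basement membrane chain, fell by 3.24 ± 0.47 (adjusted p = 0.00341) and differed by -2.5 on slide 2 (adjusted p = 0.125 with the block).

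The 5 matrix genes that rose were Tnc, Timp1, Has1, Mmp3 and Adamts4. Adamts4, an enzyme that cuts the proteoglycans aggrecan and versican, lay at -1.86, -2.09 and -1.97 in the TG arrays and at 2.90, 3.40 and 3.12 in the TG+MI arrays. Each group was tight and the groups were far apart. It rose by 5.11 ± 0.46 (adjusted p = 0.000323) and by 5.11 on slide 2 (adjusted p = 0.0195 with the block). Timp1, an inhibitor of matrix metalloproteinases, lay at 1.67, 1.27 and 1.12 in the TG arrays. In the TG+MI arrays it lay at 4.76, 5.58 and 3.18, lowest in TG+MI 3. It rose by 3.15 ± 0.50 (adjusted p = 0.00537) and differed by 3.39 on slide 2 (adjusted p = 0.0902 with the block). Mmp3, the metalloproteinase stromelysin 1, rose by 1.5 ± 0.21 (adjusted p = 0.00289). Has1, which makes hyaluronan, was at least 4.58-fold higher (adjusted p = 0.00993), and Tnc, the wound matrix protein tenascin C, at least 2.3-fold higher, a call lost without TG 1, TG 2, TG 3, TG+MI 1 or TG+MI 2 (2.15 to 3.04, adjusted p = 0.0543 to 0.0734). Fn1, which encodes fibronectin, differed by -0.19 ± 0.41 (adjusted p = 0.813) and was not called.

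Some fibroblast markers fell. Of 27 tested 9 fell and 0 rose, against 3.75% and 5.07% of all genes, with a median of -0.66 and -0.54 on slide 2. Col1a1, Col1a2 and Lum are among the 9 and are counted above among collagens and matrix genes. Tagln is counted again below among smooth muscle markers. Without TG 1 the count was 2, and with the block 0. Dpt, which encodes dermatopontin, fell by 1.54 ± 0.30 (adjusted p = 0.0136) and lost the call without TG 1 or TG+MI 2 (-1.47 to -1.33, adjusted p = 0.054 to 0.0542). The defining fibroblast genes Pdgfra and Tcf21 differed by -0.37 ± 0.25 (adjusted p = 0.402) and -0.74 ± 0.21 (adjusted p = 0.0524). The summed level of the list, as log2, ranged over 9.18 to 9.52 in TG and 8.58 to 8.67 in TG+MI. Bright probes weigh most in this sum, and it does not measure an amount of cells. The list shares members with the matrix lists, and its part in their falls was not tested. Of 27 genes of TGF-beta, activin and BMP signalling 3 rose, Tgfb2, Inhbb and Fstl3, and 3 fell, Tgfb3, Ltbp1 and Ltbp4. Fstl3, which binds activins, rose by 1.49 ± 0.28 (adjusted p = 0.0106), and Tgfb1 differed by 0.12 and was not called. Tgfb2 and Inhbb rose by 0.97 and 2.01. Tgfb2 lost its call without TG 2 or TG 3 (0.90 to 0.92, adjusted p = 0.0503 to 0.0522), and Inhbb without TG 1, TG 2, TG 3, TG+MI 2 or TG+MI 3 (1.69 to 2.12, adjusted p = 0.0593 to 0.0718). Tgfb3, Ltbp1 and Ltbp4 fell, with differences of -0.88, -1.12 and -0.92. Tgfb3 lost its call without TG 1 (-0.74, adjusted p = 0.0544), and Ltbp4 without TG 1, TG 2, TG 3, TG+MI 1 or TG+MI 2 (-0.97 to -0.65, adjusted p = 0.0569 to 0.102). Another probe of Ltbp1 differed in the opposite direction.

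Some atrial genes fell in TG+MI. Of 15 tested, 6 fell and 0 rose, against 3.75% and 5.07% of all genes. The median was -1.37 and -1.59 on slide 2, and 1 fall was left without TG 1 or without TG+MI 1. With the block 0 were called. Myl7, the atrial myosin light chain, lay at 7.51, 5.41 and 7.44 in the TG arrays and at 0.04, 4.14 and -4.80 in the TG+MI arrays. Its range within TG+MI was wider than that between the group means, and the difference of -6.99 ± 2.90 (adjusted p = 0.162) did not pass. Sln, which encodes the atrial calcium pump inhibitor sarcolipin, had the same order of arrays, at 7.34, 5.06 and 6.73 in the TG arrays and at -0.54, 3.70 and -5.49 in the TG+MI arrays. Dkk3, a secreted protein gene, lay at 4.86, 3.27 and 3.38 in the TG arrays and at -1.46, -0.64 and -2.41 in the TG+MI arrays. It fell by 5.34 ± 1.02 (adjusted p = 0.0122) and differed by -4.89 on slide 2 (adjusted p = 0.211 with the block), and the call was lost without TG 1 (-4.83, adjusted p = 0.0509). Mybphl, an atrial myosin-binding protein gene, lay at 3.48, -0.10 and 2.30 in the TG arrays and at -6.84, -1.98 and -6.63 in the TG+MI arrays, above background in TG+MI 2 alone of its group. Its fitted difference of -7.05 ± 1.72 (adjusted p = 0.0321) rests on undetected signal in TG+MI 1 and 3 and is no measured fold, and the call was lost without TG 1, TG 3, TG+MI 1 or TG+MI 3 (-6.84 to -6.20, adjusted p = 0.0711 to 0.112). Among wild-type arrays Myl7 ranged as widely, with -1.43, -1.5 and -5.46 in WT and 6.14, -5.0 and -4.54 in WT+MI. How much atrial tissue each sample held is not stated. The summed level of the atrial list, as log2, ranged over 8.93 to 10.30 in TG and 7.78 to 8.69 in TG+MI. It adds the signals of different probes, so the brightest weigh most, and it does not measure an amount of tissue. The part of the atrial list in other falls was not tested. Sbk3, a kinase gene outside the list, had its highest values in TG 1 and TG 3, at 5.74, 2.68 and 4.40 in the TG arrays and at 0.65, 1.48 and 1.78 in the TG+MI arrays. It fell by 2.97 ± 0.70 (adjusted p = 0.028) and lost the call without TG 1, TG 3, TG+MI 1 or TG+MI 2 (-3.06 to -2.24, adjusted p = 0.0718 to 0.0867).

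Other tissues differed between single arrays. Adipocyte markers stood high in TG 1, with the adipokine gene Adipoq at 2.81, -2.16 and -1.67 in the TG arrays and at -3.34, -6.0 and -6.01 in the TG+MI arrays. Of 16 tested 2 fell, Car3 and Slc36a2, where 3.75% of all genes did, and 0 were called without TG 1. Car3 lost its call without TG 1, TG 2, TG 3, TG+MI 2 or TG+MI 3 (-6.63 to -4.28, adjusted p = 0.0657 to 0.158), and Slc36a2 without TG 1, TG 2, TG+MI 1 or TG+MI 2 (-0.97 to -0.71, adjusted p = 0.059 to 0.104). Of 17 smooth muscle markers 4 fell, Myh11, Cnn1, Tagln and Smtn, and 0 were left without TG+MI 2. Cnn1 lost its call without TG 1, TG 2, TG+MI 1, TG+MI 2 or TG+MI 3 (-2.83 to -1.80, adjusted p = 0.0572 to 0.133), Tagln without TG 1, TG 2, TG+MI 1, TG+MI 2 or TG+MI 3 (-1.70 to -1.07, adjusted p = 0.0645 to 0.11), and Smtn without TG 1, TG 2, TG 3, TG+MI 2 or TG+MI 3 (-0.58 to -0.42, adjusted p = 0.0682 to 0.143). Myh11, the smooth muscle myosin, lay at 1.58, 0.39 and -0.27 in the TG arrays and at -1.0, -1.54 and -1.36 in the TG+MI arrays, highest in TG 1 and lowest in TG 3 of its group. The difference was -1.87 ± 0.39 (adjusted p = 0.0178) and -1.03 on slide 2 (adjusted p = 0.372 with the block), and the call was lost without TG+MI 2 (-1.75, adjusted p = 0.0679). The pericyte gene Pdgfrb differed by 0.06 ± 0.10 (adjusted p = 0.731). Of 11 nerve and glia markers 4 fell, among them S100b, Dbh and Pmp22. Dbh, the enzyme that makes noradrenaline in sympathetic nerves, lay at 1.93, 2.29 and 2.07 in the TG arrays and at 0.66, 0.08 and 1.05 in the TG+MI arrays and fell by 1.5 ± 0.23 (adjusted p = 0.00447), with -1.48 on slide 2 (adjusted p = 0.108 with the block). S100b, of glia, fell by 1.87 ± 0.27 (adjusted p = 0.00341), with -1.63 on slide 2 (adjusted p = 0.116 with the block). Pmp22, which encodes a myelin protein, lost its call without TG 1, TG 2, TG 3, TG+MI 1 or TG+MI 2 (-0.61 to -0.46, adjusted p = 0.0656 to 0.136).

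Of 37 endothelial genes 2 rose and 0 fell, against 5.07% and 3.75% of all genes. They were Sele and Icam1, adhesion molecules through which leukocytes attach to vessels. Icam1 rose by 0.91 ± 0.22 (adjusted p = 0.0313), a call lost without TG 1, TG 2, TG 3, TG+MI 2 or TG+MI 3 (0.75 to 1.02, adjusted p = 0.0543 to 0.0934). Sele had a computed bound of 1.14-fold with 2 of 3 TG+MI arrays above background, which is no sure lower limit. Pecam1, found on all endothelium, differed by 0.06 ± 0.15 (adjusted p = 0.824).

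Genes of contraction, energy supply and excitation were mostly not called, as were most genes: 5.07% of all genes rose and 3.75% fell. Of 35 contractile genes 2 rose, Xirp1 and Ankrd1, and 0 fell, with a median of 0.00, or -0.14 after quantile normalization. Myh6, the main cardiac myosin, lay at 8.05, 8.11 and 8.24 in the TG arrays and at 8.18, 8.07 and 8.35 in the TG+MI arrays and differed by 0.06 ± 0.15 (adjusted p = 0.819). Xirp1, an actin-binding repair protein gene, rose by 1.70 ± 0.34 (adjusted p = 0.014) and lost the call without TG 1 (1.63, adjusted p = 0.0535). Of 52 genes of oxidative phosphorylation and the citrate cycle 0 were called in either direction by limma and 0 with the block, and 0 had groups that did not overlap, where 16.7% of all genes lay higher and 13.6% lower without overlap. Their median was 0.02, which turned to -0.09 after quantile normalization. Of 38 genes of fatty acid use 0 rose and 1 fell, and 0 were called with the block.

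Of 36 channel genes 0 rose and 3 fell, where 5.07% and 3.75% of all genes did. The 3 were Kcne1, Kcnj3 and Kcnn2, with differences of -1.92, -1.12 and -0.99. Kcnj3 is listed among the atrial markers too and is counted in their falls. Kcne1 lost its call without TG 1, TG 2, TG 3 or TG+MI 2 (-1.96 to -1.56, adjusted p = 0.0508 to 0.0769). Kcnj3 lost it without TG 1, TG 3, TG+MI 1, TG+MI 2 or TG+MI 3 (-1.21 to -0.77, adjusted p = 0.0584 to 0.0893), and Kcnn2 without TG 1, TG 3, TG+MI 2 or TG+MI 3 (-1.02 to -0.87, adjusted p = 0.0517 to 0.0745). Kcnip2 and Kcnd2, subunits of the transient outward potassium channel, differed by -0.76 ± 0.34 (adjusted p = 0.186) and -0.38 ± 0.23 (adjusted p = 0.334) and did not pass. Of 27 calcium handling genes 1 rose, Sri, which encodes the ryanodine receptor regulator sorcin, by 0.69 ± 0.10 (adjusted p = 0.00442), and 2 fell, Cacna1g and Itpr2. The calcium pump gene Atp2a2 differed by -0.20 ± 0.21 (adjusted p = 0.591). Cacna1g, a T-type calcium channel, fell by 1.35 ± 0.30 (adjusted p = 0.0222) and lost the call without TG 1, TG 2, TG 3 or TG+MI 2 (-1.40 to -1.02, adjusted p = 0.0528 to 0.0711). Itpr2, an inositol trisphosphate receptor gene, fell by 0.48 ± 0.11 (adjusted p = 0.0266) on the probe used, while the mean of its 5 probes differed by 0.05, and it lost the call without TG 1, TG 2, TG 3 or TG+MI 2 (-0.51 to -0.39, adjusted p = 0.0538 to 0.0921).

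**Figure D3:**
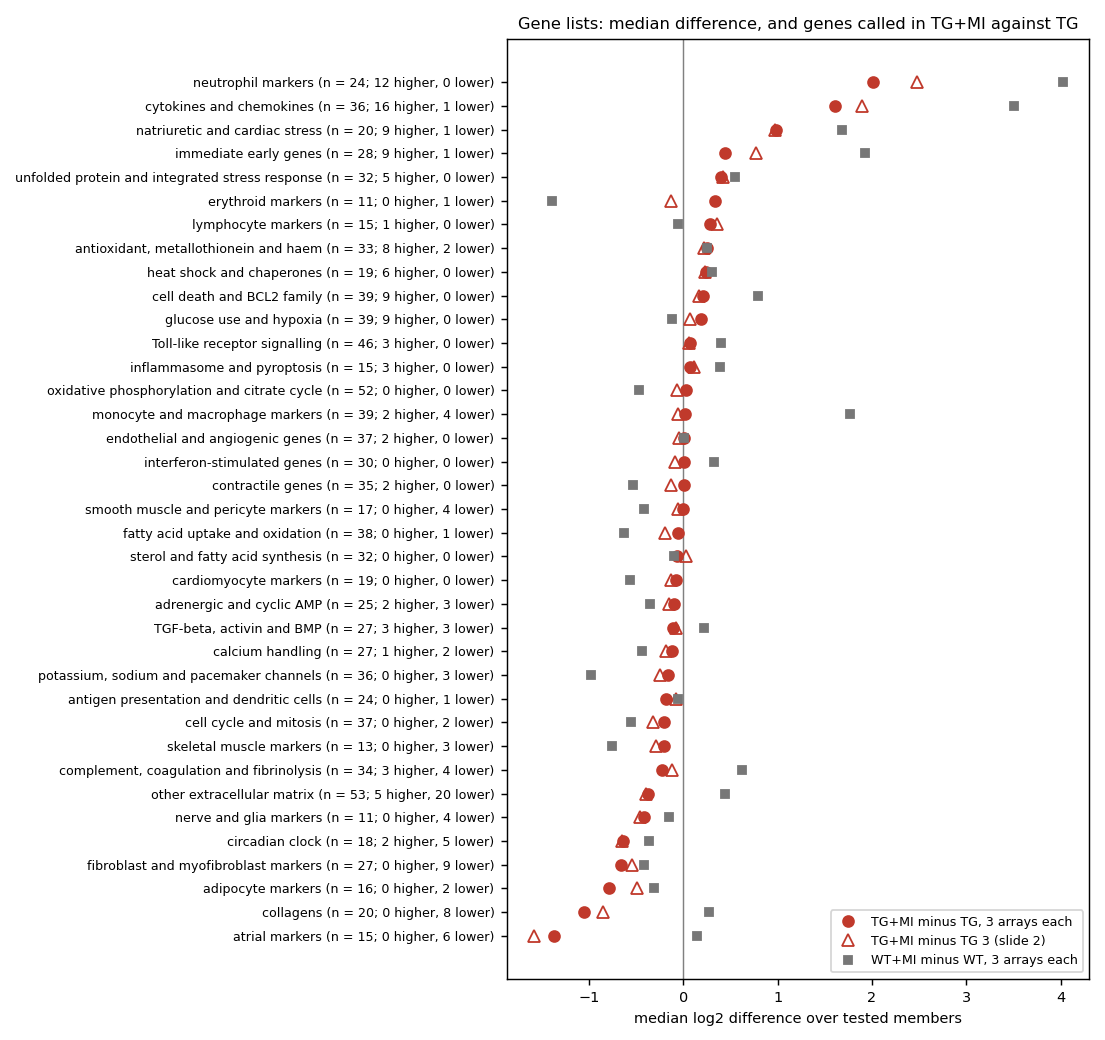
Median log2 difference (x axis) over the tested members of each gene list with at least 10 of them (y axis, with the number tested and the number called higher and lower in TG+MI against TG). Filled red circles are TG+MI minus TG, open triangles TG+MI minus TG 3 on slide 2, grey squares WT+MI minus WT. Neutrophil markers (2.01) and cytokines (1.60) lie highest in red and atrial markers (-1.37) and collagens (-1.06) lowest. For collagens the grey square (0.27) lies on the other side of 0. Fitted values of genes below background in a group are included. With such genes at their bound the median is 1.44 for neutrophil markers and 1.53 for cytokines.

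Circadian clock genes moved in both directions. Of 18 tested 2 rose, Arntl and Nfil3, and 5 fell, Dbp, Per3, Hlf, Nr1d1 and Nr1d2. Over all genes 5.07% rose and 3.75% fell. With the block 0 were called. Dbp, a clock output transcription factor, lay at 5.45, 5.55 and 5.43 in the TG arrays and at 2.10, 2.95 and 3.79 in the TG+MI arrays. TG was uniform, and TG+MI 3 was nearest to it. It fell by 2.53 ± 0.34 (adjusted p = 0.00266), and differed by -2.48 on slide 2 (adjusted p = 0.0771 with the block). Per3, a period gene, fell by 1.70 ± 0.33 (adjusted p = 0.0123) with -1.58 on slide 2 (adjusted p = 0.206 with the block), and Hlf, a relative of Dbp, fell by 1.56 ± 0.34 (adjusted p = 0.0208) with -1.28 on slide 2 (adjusted p = 0.324 with the block). Per3 lost its call without TG+MI 2 (-1.57, adjusted p = 0.0528), and Hlf without TG 1, TG 2, TG+MI 1 or TG+MI 2 (-1.54 to -1.37, adjusted p = 0.0589 to 0.0816). Nr1d1 and Nr1d2, which encode the REV-ERB repressors, fell, with differences of -1.22 ± 0.23 (adjusted p = 0.0125) and -1.16 ± 0.19 (adjusted p = 0.00625). They differed by -1.16 and -1.08 on slide 2.

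Arntl, which encodes the clock activator BMAL1, lay at -1.91, -2.31 and -1.57 in the TG arrays and at 0.22, -0.23 and -0.16 in the TG+MI arrays and rose by 1.87 ± 0.23 (adjusted p = 0.00174), with 1.51 on slide 2 (adjusted p = 0.0715 with the block). Nfil3, which represses genes that Dbp activates, lay at 0.82, 1.06 and 0.93 in the TG arrays and at 2.52, 2.20 and 2.80 in the TG+MI arrays and rose by 1.57 ± 0.27 (adjusted p = 0.00815), with 1.57 on slide 2 (adjusted p = 0.141 with the block). For both genes all TG+MI arrays stood above all TG arrays. Per1 and Per2 did not pass, and TG+MI 3 was their highest infarcted array, with Per2 at -0.47, 0.21 and 2.39. The time of day of sampling is not stated, so it cannot be told apart from infarction. The count of falls ranged from 4, without TG 1, TG 2, TG+MI 1 or TG+MI 2, to 10, without TG+MI 3.

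The clock promoters shown hold motifs known from clock factors. Nfil3 has the RORE motif TAGGTCA, bound by ROR and REV-ERB receptors, here as its reverse complement at -12 to -6. Per3 has the D-box TTATGTAA, bound by Dbp and Nfil3, at 2 places before its start. Both stretches are RefSeq promoters on GRCm38.p6, 5′ to 3′ on the gene's strand, with motifs in capitals. The Nfil3 stretch ends at the base before the start, and the Per3 stretch covers -230 to -131.
Nfil3, chr13:52981040-52981139, minus strand: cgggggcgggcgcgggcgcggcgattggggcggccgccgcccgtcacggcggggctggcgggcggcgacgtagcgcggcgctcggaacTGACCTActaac
Per3, chr4:151044796-151044895, minus strand: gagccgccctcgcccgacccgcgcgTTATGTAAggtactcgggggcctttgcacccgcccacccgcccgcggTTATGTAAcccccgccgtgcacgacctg
All 7 called clock genes had a promoter entry. The RORE motif was in 2 of them, Arntl and Nfil3, and in 2.61% of all promoters, and the D-box in 1, Per3, and in 0.938%. The E-box CACGTG was in 0 of the 7 and in 7.15% of all. The percentages are over single promoter entries, while a gene was counted if any of its entries matched, so they are not counted alike. Each motif was searched on both strands in windows of 300 bases, none overlaps another in the stretches shown, and a match is a description of letters only.

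**Figure D4:**
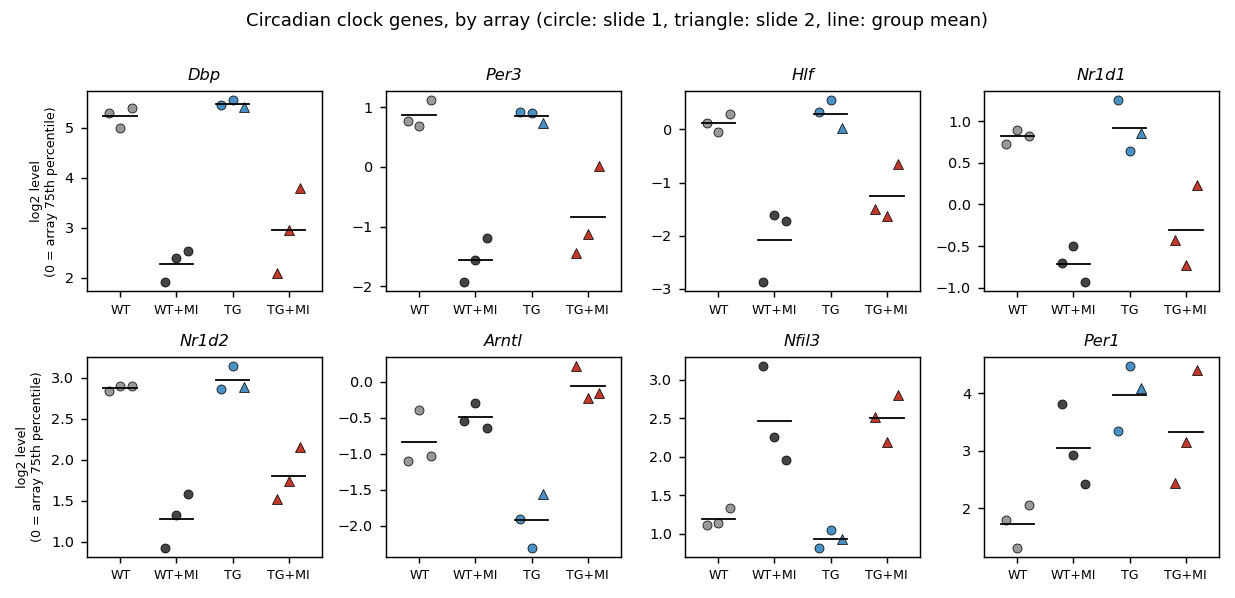
Log2 level (y axis, 0 = the array's 75th percentile) of 8 clock genes by array in the 4 groups (x axis), each point 1 array, circles slide 1, triangles slide 2, lines group means. Dbp, Per3, Hlf, Nr1d1 and Nr1d2 are lower and Arntl and Nfil3 higher in all TG+MI arrays than in all TG arrays, while Per1 overlaps. Axes differ between genes.

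Of 34 genes of coagulation and complement 3 rose, among them Plaur and F10, and 4 fell, F3, C2, C1qa and C1qb. Over all genes 5.07% rose and 3.75% fell. Plaur, the urokinase receptor, rose by 2.74 ± 0.36 (adjusted p = 0.00234) and by 2.98 on slide 2 (adjusted p = 0.0459 with the block). F10, coagulation factor X, was at least 8.19-fold higher (adjusted p = 0.0109). F3, tissue factor, fell by 0.82 ± 0.15 (adjusted p = 0.00944) and differed by -0.63 on slide 2. The complement genes C2, C1qa and C1qb fell, with differences of -2.17, -0.71 and -0.67. C1qa lost its call without TG 1, TG 2, TG 3 or TG+MI 2 (-0.80 to -0.65, adjusted p = 0.0523 to 0.084).

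Beside the transgenic response stands that of wild-type hearts, from arrays that are not shared with it, though all 12 arrays share the estimate of the spread. In WT+MI against WT 9506 genes (48.1%) were called, 3659 higher (18.5%) and 5847 lower (29.6%). Of the genes higher in TG+MI, 799 (79.8%) were also called higher in WT+MI, which is 21.8% of the WT+MI rises. Of the genes lower in TG+MI, 476 (64.2%) were also called lower in WT+MI, or 8.14% of its falls. Calls in opposite directions numbered 25 and 11. All WT and WT+MI arrays were on slide 1, and no TG+MI array was.

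The difference between the 2 responses was tested as the interaction, TG+MI minus TG less WT+MI minus WT. It called 1567 genes (7.93%), 971 above 0 (4.91%) and 596 below (3.02%). With the slide block it called 3. Without single arrays it called between 51, without WT 3, and 2681, without TG+MI 2.

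For leading inflammatory genes the 2 differences were 5.55 and 6.92 for Lcn2, with an interaction of -1.38 (adjusted p = 0.0501). For S100a9 they were 4.19 and 4.84, with -0.65 (adjusted p = 0.497). For Il6 the fitted interaction was -0.98 (adjusted p = 0.588) and for Ccl2 -0.67 (adjusted p = 0.41), neither called. Il1b had a fitted interaction of -2.79 (adjusted p = 0.0499), but with TG below background on all 3 arrays its transgenic rise is a lower bound and the size of its interaction is not measured. Of 36 cytokine genes 6 had a called interaction below 0 and 1 above, against 3.02% and 4.91% of all genes. Of 22 that were above background on all 12 arrays, 2 and 1 did. The WT+MI median of the 36 was 3.51.

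Over all genes 18.5% rose and 29.6% fell in WT+MI, and 5.07% and 3.75% did in TG+MI. The interaction was called below 0 for 3.02% of all genes and above 0 for 4.91%. For monocyte and macrophage markers 23 of 39 rose in WT+MI, with a median of 1.76, and 7 had a called interaction below 0 and 0 above. In the Toll-like receptor list WT+MI had 22 rises and 7 falls among 46 genes, and 4 had a called interaction below 0. Cd14 was among them with -2.65 (adjusted p = 0.0273), while Tlr2 with -1.58 (adjusted p = 0.0516) and Tlr4 with -0.43 (adjusted p = 0.125) were not called. Among 20 collagens and 53 other matrix genes 7 and 19 had a called interaction below 0, and 0 above. Of the 16 and 44 above background on all 12 arrays, 4 and 14 did. Timp1 had -3.02 (adjusted p = 0.0399), with differences of 3.15 in transgenic and 6.18 in wild-type hearts. Of 52 oxidative phosphorylation genes 32 fell in WT+MI and 0 in TG+MI, and 4 had a called interaction above 0 (4.91% of all genes did). Of 36 channel genes 23 fell in WT+MI and 3 in TG+MI, and 7 had a called interaction above 0, among them Kcnd2 with 1.53 (adjusted p = 0.037) and Kcnj2 with 1.13 (adjusted p = 0.0248).

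**Figure D5:**
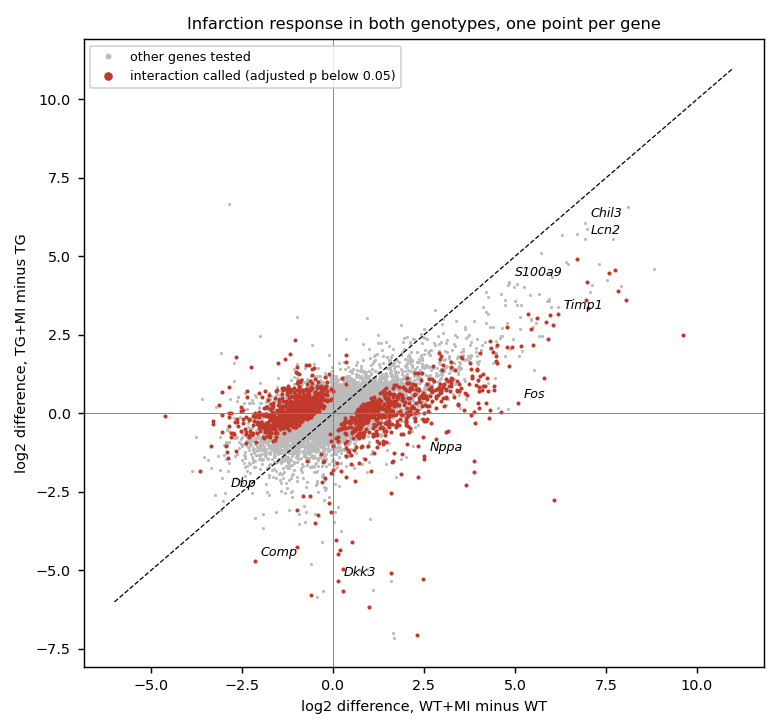
Log2 difference of each of 19761 genes in TG+MI minus TG (y axis) against WT+MI minus WT (x axis), red where the interaction was called, the dashed line marking equal differences. Of the 1567 red points 971 lie above the dashed line and 596 below. Fitted values of genes below background in a group are included.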

How the data were processed

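Per the labels, each of 12 heart RNA samples (RNAiso Plus extraction, Low Input Quick Amp labelling) went on 1 single-colour Agilent array. The deposited spot intensity is Agilent's processed Cy3 signal, background-subtracted by Feature Extraction per the file headers and linear. The authors also deposited log2 values of these arrays. A column ranked probes like its own array (Spearman at least 0.99999, and at most 0.962 with another array), and column medians of 4.22 to 4.23 were what quantile normalization gives, a step read from the values. Probes carry mm9 positions, per the file headers. limma is named in the submitters' processing notes, with no version. In all, 0 columns of sample values were left out.

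From the deposited intensity, log2 was taken and scaled by subtracting the 75th percentile of an array's non-control probes. Repeated spots were averaged without outliers, which left out 49 of 56605 probes. Probes were named through a RefSeq gene table, 32989 by accession, 10228 by current symbol and 519 by synonym, and 12869 kept the name in the files. The probe with the highest mean stood for its gene. It had to be well above background on every array of some group, which 19761 of 36981 genes met. limma 3.58.1 (lmFit and eBayes, R 4.3.3, data.table version 1.17.8) was fitted to all 12 arrays as group means, with Benjamini-Hochberg adjustment over all genes tested and a threshold of 0.05. Every adjusted p in the text is from this fit or, where said, from the fit with slide as a block. Tables and figures were made with Python 3.11.15, pandas 2.3.3 and matplotlib 3.10.9.

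Where a probe was above background on no array of a group, the fold is a bound. It sets the bright group's mean against the mean, per array, of the higher of the dim probe's signal and the lowest signal of any probe well above background. Where an array of the bright group was also below background, its signal entered that group's mean, and the bound is then no sure limit. Alternatives were quantile normalization, normexp background (offset 50), the authors' table, other filters, the 6 transgenic arrays alone, slide and replicate blocks, slide 2 alone, the mean of a gene's probes and each array left out. The comparison and the 40 gene lists were chosen with earlier results of these data known. Genes were named by rule: the 12 largest called differences each way with groups apart on all 6 arrays, the 5 largest bounds each way, the defining and the 3 most changed called members of each list, the 5 largest interactions each way and all members of a count of 5 or fewer. A few genes this rule picked are not reported here. Replicate numbers were not taken as pairs.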

Additional observations from a re-analysis of the deposited data

Results flagged for a closer look

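The infarction response differed between transgenic and wild-type hearts by the interaction term for 1567 genes, with the caution that it called 3 with the slide block. Among genes named for a large transgenic response, the interaction was below 0 for the matrix genes Comp (-2.56), Fmod (-3.28), Cilp2 (-5.90), Ucma (-5.24), Chad (-1.83) and Col4a6 (-2.83). It was also below 0 for Dkk3 (-5.49), Tceal6 (-2.11), Gal3st2 (-1.98), Ecrg4 (-5.17) and Lrat (-2.74). Of these 11 genes Comp and Dkk3 were above background on all 12 arrays. The other 9 were not, so their interactions are fitted values that include undetected signal and their sizes are not measured. All 11 fell in TG+MI, and since the same TG arrays chose them and enter the interaction, the 2 are not independent. Il1b (-2.79), Rab44 (-3.20) and F10 (-4.43) rose in both genotypes by the fitted values, less in transgenic hearts, with TG below background on all 3 arrays.

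Among genes measured on all 12 arrays the largest interactions below 0 after Dkk3 were those of Fos (-4.77), Hp (-4.59), Adamts8 (-4.36) and an unnamed interval probe on chromosome 10 (-4.20). Hp, which encodes the haemoglobin-binding acute phase protein haptoglobin, lay at -1.30, -1.29 and -2.01 in WT, 3.44, 3.0 and 2.83 in WT+MI, 3.57, -0.10 and -0.24 in TG and 0.80, 1.43 and 1.10 in TG+MI, so TG 1 stood high. Fos lay at -3.11, -2.85 and -3.02 in WT and 1.35, 2.04 and 0.65 in TG. Its TG arrays were all above the WT arrays before infarction is considered.

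Among the largest interactions above 0 were those of Cenpf (3.40), D630024D03Rik (3.04), A530016L24Rik (2.81) and 6430519N07Rik (2.59). Cenpf, a kinetochore gene, lay at 1.80, 1.94 and 2.38 in WT and -1.74, -1.21 and -0.29 in WT+MI, while its TG and TG+MI values overlapped.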

How the results depend on the processing

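The count of 1743 genes called in TG+MI against TG was 1671 after quantile normalization, 1675 with the deposited table, 1484 with normexp, 1667 with the mean of a gene's probes and 1627 among genes above background on all 6 arrays. It fell to 931 with no filter on dim probes, 652 with the 6 transgenic arrays alone, 153 without TG 1 and TG 2, 122 with the slide block and 0 on slide 2 alone by limma (1666 at an unadjusted p below 0.05). Without single arrays it ranged from 679, without TG+MI 2, to 2204, without TG+MI 3. The interaction's 1567 became 52 with no filter and 3 with the slide block, and ranged from 51 to 2681 without single arrays. The WT+MI count of 9506 ranged from 7641 to 9699. Of 150 called genes that the naming rule picked, 142 kept the call after quantile normalization, 101 with no filter and 30 with the slide block. Itpr2 reversed, to 0.0528 (adjusted p = 0.892), with the mean of its probes.

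With the replicate number as a block 238 genes were called. The numbers were not taken as pairs. Deviations from the group mean correlated at 0.05, -0.12 and 0.09 between arrays numbered 1, 2 and 3, and TG 1 correlated best with TG+MI 2. So few arrays cannot settle whether the numbers mark pairs. With 3 arrays a group, and only TG 3 sharing a slide with TG+MI, slide and infarction cannot be told apart for TG 1 and TG 2, and no p-value here removes that.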

Other observations

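Some genes outside the lists stood among the largest changes. Serpina3n, a serine protease inhibitor of the acute phase, lay at -2.30, -2.79 and -2.87 in the TG arrays and at 1.10, 0.84 and 0.95 in the TG+MI arrays, a difference of 3.62 ± 0.28 (adjusted p = 0.000163), and 3.83 on slide 2 (adjusted p = 0.0102 with the block). Ch25h, which makes 25-hydroxycholesterol, lay at -1.81, -1.80 and -2.28 in the TG arrays and at 1.33, 2.0 and 3.03 in the TG+MI arrays, a difference of 4.08 ± 0.42 (adjusted p = 0.000635), and 4.40 on slide 2 (adjusted p = 0.0229 with the block). Aldh1a2, which makes retinoic acid and is listed among epicardial markers, lay at -0.65, -0.60 and -0.89 in the TG arrays and at 1.62, 2.45 and 0.95 in the TG+MI arrays and rose by 2.39 ± 0.33 (adjusted p = 0.00272), with 2.56 on slide 2 (adjusted p = 0.0578 with the block). Wt1, another epicardial marker, differed by 0.83 ± 0.26 (adjusted p = 0.0726) and was not called.

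Among genes that fell, Ackr4, a scavenging chemokine receptor, lay at 0.32, 0.36 and 0.47 in the TG arrays and at -2.41, -3.16 and -1.68 in the TG+MI arrays, a difference of -2.80 ± 0.46 (adjusted p = 0.0065), and -2.88 on slide 2 (adjusted p = 0.116 with the block). Its interaction was 0.23 (adjusted p = 0.832), and its wild-type difference was -3.03. Ptgfr, the receptor for prostaglandin F2-alpha, fell by 3.15 ± 0.52 (adjusted p = 0.00635), with -3.14 on slide 2 (adjusted p = 0.125 with the block). Casq1, the calcium store protein of skeletal muscle, fell by 2.04 ± 0.27 (adjusted p = 0.00245), with -1.78 on slide 2 (adjusted p = 0.0894 with the block). Of 13 skeletal muscle markers 3 fell, Casq1, Myl1 and Mylpf, and 0 rose, against 3.75% and 5.07% of all genes. The calls of Myl1 and Mylpf were lost without TG 1, TG 3, TG+MI 1, TG+MI 2 or TG+MI 3 (-1.40 to -0.98, adjusted p = 0.0547 to 0.129) and without TG 1, TG 2, TG 3, TG+MI 2 or TG+MI 3 (-0.61 to -0.54, adjusted p = 0.0556 to 0.0924). Lrat, which esterifies retinol, was at least 5.77-fold lower (adjusted p = 0.0088).

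Of 37 cell cycle genes 0 rose and 2 fell, against 5.07% and 3.75% of all genes. Top2a and Kif20a fell, with differences of -1.14 and -0.85, and the proliferation marker Mki67 differed by -0.97 ± 0.31 (adjusted p = 0.0768). Top2a lost its call without TG 1, TG 2, TG 3, TG+MI 1 or TG+MI 2 (-1.18 to -1.06, adjusted p = 0.07 to 0.101), and Kif20a without TG 1, TG 2, TG 3, TG+MI 1, TG+MI 2 or TG+MI 3 (-1.01 to -0.58, adjusted p = 0.0578 to 0.133). Of 32 genes of sterol and fatty acid synthesis 0 were called in either direction by limma, 3 lay higher and 3 lower without overlap, where 16.7% and 13.6% of all genes did, and 0 were called with the block. Of 11 erythroid markers 1 fell, Tfrc, with a difference of -2.23 ± 0.19 (adjusted p = 0.000292). Of 25 adrenergic and cyclic AMP genes 2 rose, Pde4b and Prkar1a, and 3 fell, Rgs2, Rgs4 and Akap1, and 0 were called with the block. Each call was lost without single arrays: Pde4b without TG 1, TG 2, TG 3 or TG+MI 2 (0.83 to 0.87, adjusted p = 0.0654 to 0.0811), Prkar1a without TG 1 or TG+MI 2 (0.58 to 0.64, adjusted p = 0.0522 to 0.0532), Rgs2 without TG 2, TG 3, TG+MI 1 or TG+MI 2 (-0.98 to -0.93, adjusted p = 0.0544 to 0.0718), Rgs4 without TG 1, TG 2 or TG+MI 1 (-0.89 to -0.81, adjusted p = 0.0618 to 0.0789) and Akap1 without TG 1, TG 2, TG 3, TG+MI 2 or TG+MI 3 (-0.78 to -0.62, adjusted p = 0.0824 to 0.129). The receptor gene Adrb1 differed by -0.04 ± 0.27 (adjusted p = 0.945).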
